A study of Mus musculus with 9 samples.

Results

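Exposure of mouse hepatoma cells to 50 uM tryptamine for 6 h was compared with control across all genes of a deposited table of transcript counts. Of the 9 libraries of the series, 6 form this comparison, 3 with tryptamine and 3 controls, and the 3 libraries of cells given 10 nM FICZ for 6 h serve as a reference. All libraries are total RNA of Hepa 1 WT cells, an established line of mouse liver tumour cells whose cell line label reads HC1C, and no genetic change is given in the labels. The controls are labelled untreated, while the protocol names a vehicle. The labels do not say that the libraries of a group are separate cultures, so p-values measure the spread between these libraries, which may be technical. The table holds 28250 genes with a gene ID, and the transcript with the highest mean count stands for each gene. Of these genes, 17082 had a count in at least 1 of the 6 libraries.

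Tryptamine is the amine left when tryptophan loses its carboxyl group, and monoamine oxidases oxidise it to indole-3-acetaldehyde. The aryl hydrocarbon receptor (AhR) is a transcription factor held in the cytoplasm by chaperones. Once a ligand is bound, it enters the nucleus, pairs with ARNT and binds the xenobiotic response element, whose core is GCGTG. Its best known targets in liver cells are Cyp1a1, Cyp1a2 and Cyp1b1, cytochromes P450 that oxidise aromatic compounds, together with enzymes such as Nqo1 and Aldh3a1. FICZ, a tryptophan photoproduct, is a high-affinity AhR ligand. The title of the series names tryptamine as a proligand of the receptor that depends on monoamine oxidases.

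The total count over genes was 11239117 to 16244740 per library, and 11492 to 11900 genes had at least 10 counts. Control replicate 3, the shallowest library, stood apart from the others. Across genes, its log2 levels in CPM (counts scaled to library size) had correlations of 0.959 to 0.965 with the other 8 libraries, which among themselves reached at least 0.990. Its difference from the median library followed transcript length, with a median log2 difference of 0.75 over 193 genes of up to 500 nt and of -0.82 over 1294 genes longer than 6000 nt. With it, tryptamine minus control had a median log2 change of -0.30 in the shortest of these classes and 0.21 in the longest, and without it the medians were -0.01 in both. The comparison was therefore fitted with all 9 libraries and again without control replicate 3, and fitted changes are those without it unless said otherwise. Among liver genes, Alb and Afp were well counted, at 261.6 ± 20.7 and 171 ± 59.2 CPM in control (SD, n = 3), but 22 of 40 hepatocyte genes in the table, among them Apoa1, Apob and Hnf4a, were listed at 0 in the tryptamine and control libraries. In all, 11168 of the 28250 genes were listed at 0 in these 6 libraries, and nothing is read from a 0. Since the sources used here do not say how reads were counted, or whether by strand, reads of overlapping genes and close copies may be shared.

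**Figure D1:**
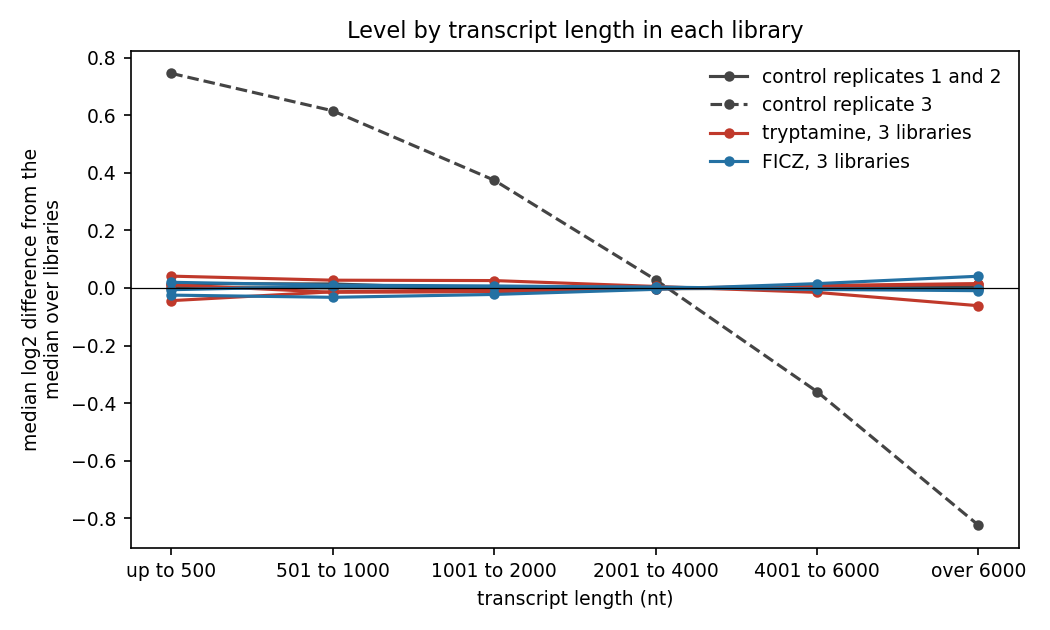
Median log2 difference of gene levels from the median over the 9 libraries (vertical axis), in 6 classes of transcript length in nt (horizontal axis), with 1 line per library. Control replicate 3 (dashed) falls from 0.75 to -0.82 across the classes, while the other 8 libraries stay close to 0.

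Tryptamine raised Cyp1a1 11.8-fold over control, and no other gene passed the test when all libraries were used. Without control replicate 3, 18 genes rose and 2 fell, and all but 4 of the genes that rose did so by less than 2-fold. The genes that rose include 6 AhR targets (Cyp1a1, Cyp1b1, Nqo1, Xdh, Adh7 and Aldh3a1), the glutathione synthesis gene Gclm and the heme synthesis gene Cpox. The test was edgeR's quasi-likelihood test with Benjamini-Hochberg adjustment over all genes tested, and a gene rose or fell where the adjusted p was under 0.05. With all 9 libraries 1 of 11984 genes rose (0.00834% of genes tested) and 0 fell. Before adjustment, p was under 0.05 for 259 higher and 366 lower genes, together 5.22% of those tested. DESeq2's Wald test called 12 genes higher and 0 lower, and limma voom with sample quality weights, which gave control replicate 3 a weight of 0.0753 against 0.753 to 2.37 for the others, called 19 higher and 0 lower. Without control replicate 3, the 18 genes that rose were 0.148% of the 12145 tested and the 2 that fell were 0.0165%. The square root of the dispersion in edgeR's fit, a measure of the spread between libraries, was 0.143 with that library and 0.0572 without it. Without it, 438 genes were higher and 377 lower at p under 0.05 before adjustment, together 6.71%. All 18 genes had a log2 change above 0 with all 9 libraries too, and 16 of them an unadjusted p under 0.05 there. The fits share every library but control replicate 3, so these values are not independent support. Leaving out a further library gave 6 genes in all without control replicate 2, 7 without tryptamine replicate 1, 9 without control replicate 1, 10 without FICZ replicate 2 and 34 without tryptamine replicate 3. Cyp1a1, Adh7, Xdh and Tnxb passed in all 8 of these further fits, Nqo1 in 7, and every other gene in 1 to 6. In the fits without a further control, 1 control library remained, and its spread was assumed to be like that of the other groups.

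Cyp1a1 (gene ID 13076) stood at 65.7, 57.0 and 60.3 CPM in control replicates 1, 2 and 3. In tryptamine replicates 1, 2 and 3 it stood at 694, 699 and 774 CPM. The groups were far apart, and the level of control replicate 3 lay between those of the other controls. In bulk RNA, more transcript per cell and more cells with the transcript cannot be told apart. The rise was 11.8-fold with all 9 libraries (log2 3.57 ± 0.10, SE, adjusted p = 1.34e-08) and 11.8-fold without control replicate 3 (95% interval 10.5 to 13.2, adjusted p = 2.72e-22). Per length, Cyp1a1 went from 23.3 to 275.8 RPKM (reads scaled to transcript length and library size). That moved it from rank 3840 to rank 178 among the genes tested with all 9 libraries. In the authors' deposited table, its 4 transcripts of 2287 to 2697 nt had log2 fold changes of 3.49 to 3.51. It passed under all 21 alternative settings with all 9 libraries and all 20 without control replicate 3.

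**Figure D2:**
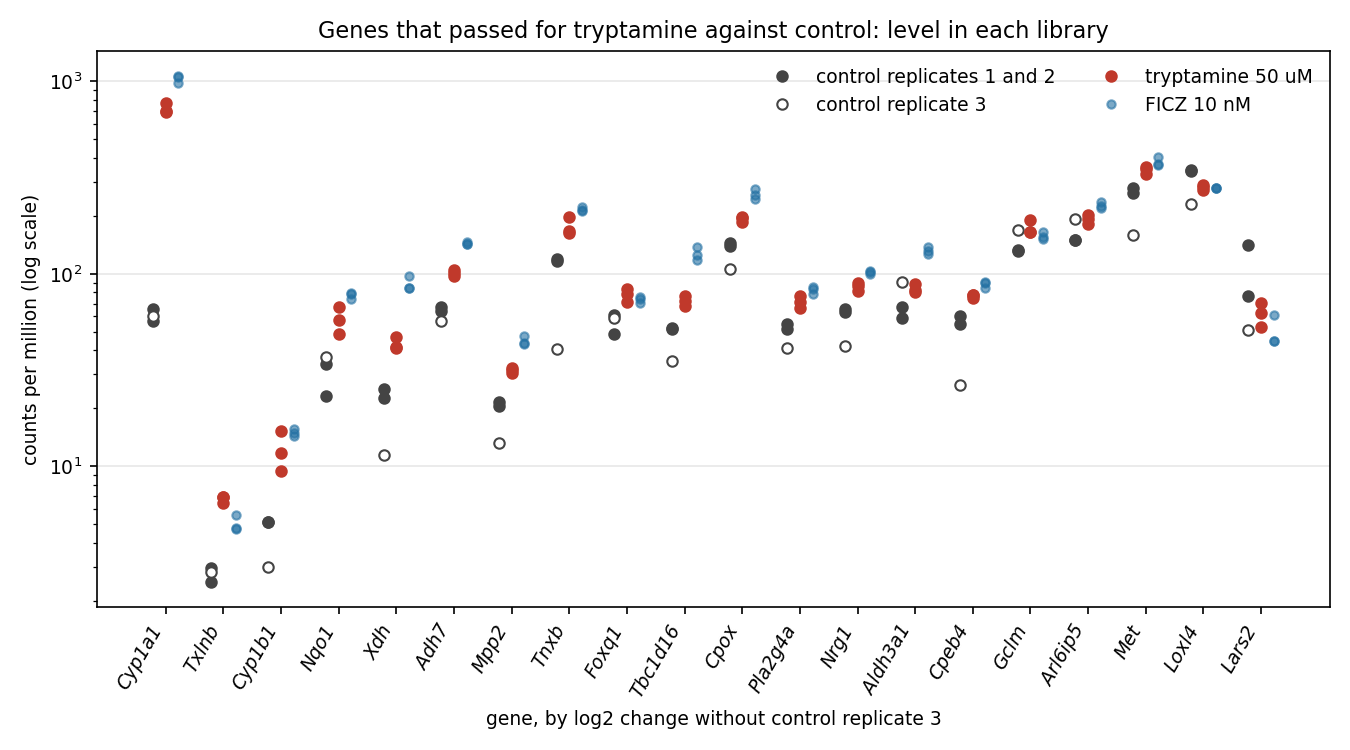
Level in CPM on a log axis (vertical) of the 20 genes that passed without control replicate 3 (horizontal), with 1 point per library. Control replicate 3 (open) lies below the other controls for long transcripts such as Tnxb and Cpeb4, and the 3 tryptamine points of Cyp1a1 sit between 694 and 774, far above every control.

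The start sites of genes that rose were searched for the receptor's core motif, GCGTG, on both strands (read as CACGC on the other strand). RefSeq promoter windows of 300 bases (build GRCm38.p6) were matched for 11 of the 18 genes, and 8 of the 11 held the motif in at least 1 window. It was also in 56.5% of the 8910 tested genes with a window and in 32.4% of all 32851 windows of the table, so a match is common. Below are the windows of 3 AhR targets and Cpox, which hold the motif (capitals), and that of Nqo1, which holds none. Cyp1a1 rose most, and the others stand for genes with smaller rises, with and without a match. They lie at chr9:57697363-57697662 on the plus strand, chr17:79715012-79715311 on the minus strand, chr3:138217523-138217822 on the plus strand, chr16:58669958-58670257 on the plus strand and chr8:107403156-107403455 on the minus strand.
Cyp1a1: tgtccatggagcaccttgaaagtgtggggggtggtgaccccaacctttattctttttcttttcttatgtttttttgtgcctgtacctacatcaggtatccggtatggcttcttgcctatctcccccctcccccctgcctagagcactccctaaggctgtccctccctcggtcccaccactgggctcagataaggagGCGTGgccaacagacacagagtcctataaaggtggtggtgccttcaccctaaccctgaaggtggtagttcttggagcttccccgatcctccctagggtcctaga
Cyp1b1: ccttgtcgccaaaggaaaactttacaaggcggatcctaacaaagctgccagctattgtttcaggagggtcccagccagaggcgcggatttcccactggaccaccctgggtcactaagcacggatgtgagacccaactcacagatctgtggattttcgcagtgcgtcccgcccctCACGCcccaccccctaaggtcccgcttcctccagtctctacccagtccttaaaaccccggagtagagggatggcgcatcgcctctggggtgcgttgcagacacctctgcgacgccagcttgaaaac
Adh7: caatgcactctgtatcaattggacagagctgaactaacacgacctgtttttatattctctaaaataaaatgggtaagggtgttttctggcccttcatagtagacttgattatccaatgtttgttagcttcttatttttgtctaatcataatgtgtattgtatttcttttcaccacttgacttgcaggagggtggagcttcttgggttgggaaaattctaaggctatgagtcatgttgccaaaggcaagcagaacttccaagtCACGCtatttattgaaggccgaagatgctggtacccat
Cpox: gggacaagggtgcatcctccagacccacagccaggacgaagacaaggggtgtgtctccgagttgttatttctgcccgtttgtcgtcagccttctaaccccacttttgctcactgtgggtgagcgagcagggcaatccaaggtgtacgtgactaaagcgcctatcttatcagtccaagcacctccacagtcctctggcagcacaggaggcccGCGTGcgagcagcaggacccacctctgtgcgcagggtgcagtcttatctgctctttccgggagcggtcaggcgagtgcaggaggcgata
Nqo1: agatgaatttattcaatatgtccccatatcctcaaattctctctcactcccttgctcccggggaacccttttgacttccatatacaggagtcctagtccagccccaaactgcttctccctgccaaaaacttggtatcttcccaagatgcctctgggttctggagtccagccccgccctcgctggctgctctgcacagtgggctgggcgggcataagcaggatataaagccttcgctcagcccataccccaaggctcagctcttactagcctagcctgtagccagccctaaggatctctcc

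The other AhR targets that rose did so by much less than Cyp1a1. Cyp1b1 (gene ID 13078), which oxidises oestrogens and polycyclic hydrocarbons, was at 5.15, 5.10 and 3.002 CPM in control and at 11.7, 9.43 and 15.2 CPM with tryptamine. The groups did not overlap, and the rise was 2.38-fold without control replicate 3 (log2 1.25 ± 0.22, SE, adjusted p = 0.00767) and 2.71-fold with it, where the adjusted p of 0.222 in edgeR's test missed the threshold. Nqo1 (gene ID 18104), a quinone reductase that both the AhR and NRF2 induce, was at 34.2, 23.1 and 36.7 CPM in control and at 57.8, 48.8 and 67.0 CPM with tryptamine. Its rise was 2.03-fold without control replicate 3 (log2 1.02 ± 0.13, SE, adjusted p = 1.84e-04), and the fold was 1.85 with it (adjusted p = 0.737). Xdh (gene ID 22436), xanthine dehydrogenase, an enzyme of purine breakdown, was at 25.1, 22.7 and 11.4 CPM in control. With tryptamine it was at 46.7, 41.1 and 41.6 CPM, above every control. Control replicate 3 was the low library here, so the rise was 2.17-fold with it and 1.80-fold without it (adjusted p = 2.25e-04).

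Adh7 (gene ID 11529), an alcohol dehydrogenase that oxidises retinol, was at 67.0, 63.7 and 56.7 CPM in control and at 101.3, 97.3 and 104.6 CPM with tryptamine. It rose 1.55-fold without control replicate 3 (log2 0.63 ± 0.08, SE, adjusted p = 1.56e-04). With all 9 libraries its log2 change was 0.69 ± 0.10 (SE), and its adjusted p of 0.105 in edgeR's test missed the threshold. Aldh3a1 (gene ID 11670), which oxidises aromatic and fatty aldehydes, was at 67.4, 59.0 and 90.6 CPM in control and at 80.6, 82.6 and 88.9 CPM with tryptamine. Control replicate 3 lay above every tryptamine library, so the groups overlapped. The rise was 1.33-fold without it (adjusted p = 0.0461) and the log2 change 0.22 ± 0.14 (SE) with it. Only 1 of the 8 fits that left out a further library kept Aldh3a1.

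The remaining AhR targets did not pass. Tiparp, a mono-ADP-ribosyltransferase that feeds back on the receptor, was at 33.4, 34.8 and 35.0 CPM in control and at 44.3, 45.7 and 53.03 CPM with tryptamine. Its groups did not overlap, and its log2 change of 0.49 ± 0.11 (SE) had an adjusted p of 0.0659 without control replicate 3. Cyp1a2, the paralogue of Cyp1a1 that is typical of adult liver, had 0, 0 and 1 counts in control and 17, 25 and 9 counts with tryptamine. The ratio of the summed rates, 51 counts against 1, was 48.4 with a 95% counting interval of 8.30 to 1950, which covers counting error only. Against control replicates 1 and 2, both at 0, tryptamine was at least 11.9-fold higher, taking 3 counts over both libraries as the limit. Its adjusted p of 0.0893 in edgeR's test missed the threshold, while DESeq2 and limma voom with quality weights called it with all 9 libraries. Ahrr, the repressor of the receptor, had 1 count in control and 0 with tryptamine, where 3 counts would be 0.199 to 0.238 CPM.

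Of 18 listed AhR targets, 12 could be tested. Without control replicate 3, 6 of them rose (0.148% of all genes tested did), 11 of 12 had a log2 change above 0 and the median was 0.70, against a median of 0.00 and 50.0% above 0 over all genes tested. With Cyp1a2 set at its lower bound, the median stayed at 0.70. With all 9 libraries 1 of 12 rose and the median was 0.71. Every tryptamine library lay above every control library for 10 of the 12, against 5.05% of all genes tested. The member below 0 was Serpinb2, a protease inhibitor, at a log2 of -0.28 ± 0.32 (SE). Like the other lists, this one was chosen with earlier results of these data known, so its shares describe its members and test nothing.

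**Figure D3:**
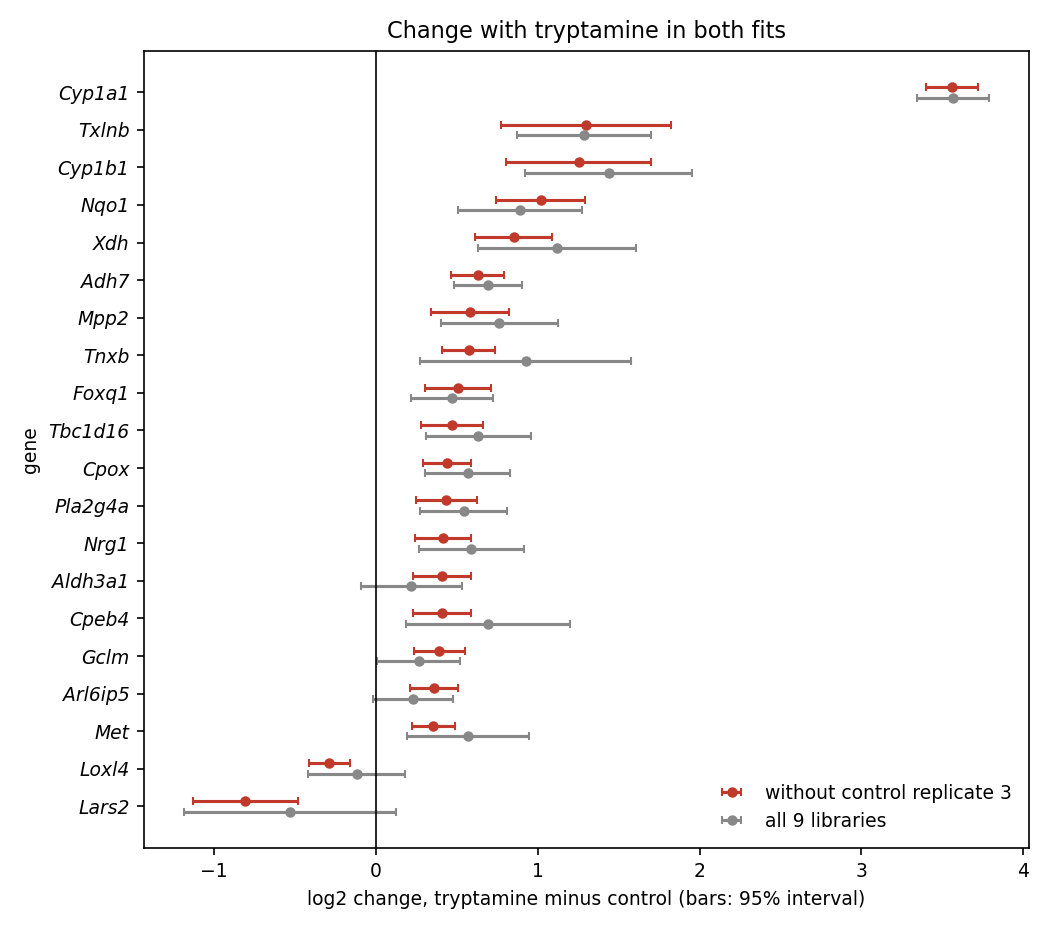
Log2 change of tryptamine minus control (horizontal axis) with 95% intervals for the 20 genes that passed without control replicate 3 (vertical axis), from the fit without that library (red) and with all 9 libraries (grey). The intervals with all 9 libraries are wider for most genes, and those of Aldh3a1, Arl6ip5, Loxl4 and Lars2 cross 0.

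The other 12 genes that rose have varied roles. Txlnb (gene ID 378431), a taxilin best known from muscle, rose from 2.51, 2.97 and 2.83 CPM in control to 6.44, 6.90 and 6.89 CPM with tryptamine. This was a 2.46-fold rise without control replicate 3 (adjusted p = 0.0266) at a low level. Cpox (gene ID 12892), the coproporphyrinogen oxidase of heme synthesis, was at 139.6, 143.8 and 105.6 CPM in control. With tryptamine it was at 185.5, 196.4 and 194.5 CPM, with no overlap. The rise of Cpox was 1.35-fold without control replicate 3 (log2 0.44 ± 0.07, SE, adjusted p = 0.00384), and the fold was 1.48 with it.

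Tnxb (gene ID 81877), which encodes the matrix glycoprotein tenascin X, has the longest transcript of the genes that passed, 12345 nt. It was at 115.9, 119 and 40.7 CPM in control and at 196.4, 162 and 166 CPM with tryptamine. The low value is that of control replicate 3, and the rise was 1.90-fold with it and 1.49-fold without it (adjusted p = 3.18e-04 without it). Met, the receptor for hepatocyte growth factor, was at 264, 279.8 and 159.5 CPM in control and at 350.2, 332 and 360.3 CPM with tryptamine, a rise of 1.28-fold without control replicate 3 (adjusted p = 0.0158). Nrg1, a ligand of ERBB receptors, was at 65.4, 63.5 and 42.1 CPM in control and at 81.6, 89.5 and 86.8 CPM with tryptamine. It rose 1.33-fold without control replicate 3 (adjusted p = 0.0289), and the fold was 1.5 with it. Control replicate 3 was the lowest of the 6 libraries for all of Tnxb, Met and Nrg1.

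Pla2g4a, the cytosolic phospholipase A2 that releases arachidonic acid, was at 54.6, 51.7 and 41.2 CPM in control and at 71.7, 66.4 and 77.0 CPM with tryptamine. It rose 1.35-fold without control replicate 3 (adjusted p = 0.0461), and the fold was 1.46 with it. Gclm, the modifier subunit of the enzyme that starts glutathione synthesis, was at 130.8, 133.5 and 169 CPM in control and at 165, 165 and 189.8 CPM with tryptamine, and rose 1.31-fold without control replicate 3 (adjusted p = 0.0266), with a fold of 1.20 when it was kept. It was the high control here and overlapped the tryptamine libraries. The same held for Arl6ip5, a membrane protein of the endoplasmic reticulum, at 149, 149.8 and 192 CPM in control and 191.7, 202.8 and 180.9 CPM with tryptamine. It rose 1.28-fold without control replicate 3 (adjusted p = 0.0276).

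The last 4 were Mpp2, a scaffold protein of the membrane-associated guanylate kinase family (1.49-fold), Foxq1, a forkhead transcription factor (1.42-fold), Tbc1d16, a GTPase-activating protein for Rabs (1.39-fold), and Cpeb4, an RNA-binding regulator of translation (1.33-fold). Their adjusted p-values were 0.0266 to 0.0461 without control replicate 3 (edgeR), and with it the folds were 1.70, 1.38, 1.55 and 1.62 in the same order. Foxq1 was at 48.6, 60.8 and 59.3 CPM in control and at 78.7, 83.4 and 71.2 CPM with tryptamine, with no overlap. Cpeb4 was at 54.6, 60.6 and 26.3 CPM in control and at 77.3, 77.2 and 75.3 CPM with tryptamine, so that control replicate 3 was again the low library. Over the 18 genes that rose, every tryptamine library lay above every control library for 15 (5.05% of all genes tested did), and above control replicates 1 and 2 for 18 (10.0% did). Since the same counts chose these genes, the shares only describe them. For 12 of the 18, with transcripts of 1938 to 12345 nt, the log2 change was larger with control replicate 3 than without it, and for 6, of 1442 to 4841 nt, it was smaller.

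Both genes that fell had groups that overlapped once control replicate 3 was included. Every tryptamine library lay below every control library for 5.08% of all genes tested, and below control replicates 1 and 2 for 10.2%. Lars2 (gene ID 102436), the mitochondrial leucyl-tRNA synthetase, was at 76.3, 140.9 and 50.9 CPM in control and at 70.5, 52.9 and 62.4 CPM with tryptamine. Its fall of 0.81 ± 0.16 (SE) on the log2 scale (adjusted p = 0.0266 without control replicate 3) became 0.30 ± 0.15 (SE, adjusted p = 0.639) when control replicate 2, the high library, was left out as well. That fit holds 1 control library, so its spread is taken from the other groups. The 18S ribosomal RNA entry Rn18s was also high in that library, at 1910 CPM, against 320.3 to 693.1 CPM in the other control and tryptamine libraries. Its part in the result was not tested. Loxl4 (gene ID 67573), a lysyl oxidase that crosslinks collagen, was at 340.9, 346.6 and 230.6 CPM in control and at 273.7, 282.3 and 289.4 CPM with tryptamine. It fell by 0.29 ± 0.06 (SE) on the log2 scale without control replicate 3 (adjusted p = 0.0444) and by 0.12 ± 0.14 (SE) with it.

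For 7 of the 18 genes that rose, the level with tryptamine was below that with FICZ by a direct test. The doses differ, 50 uM and 10 nM, and the levels stand side by side without a ranking of the compounds. The level with FICZ was 1051, 1067 and 979 CPM for Cyp1a1, against 694 to 774 CPM with tryptamine. Xdh was at 97.3, 84.6 and 84.8 CPM with FICZ, and Tbc1d16 at 125.7, 137.7 and 118.5 CPM against 76.6, 72.1 and 67.8 CPM with tryptamine. In the same edgeR fit without control replicate 3, the direct contrast of the treatments passed for 18 of 12145 genes (0.148%). Control libraries do not enter the difference itself, but they share in the estimate of spread behind its test. The 7 genes were Cyp1a1 (log2 -0.52 ± 0.06, SE), Xdh (-1.04 ± 0.09), Tbc1d16 (-0.82 ± 0.08), Aldh3a1 (-0.65 ± 0.07), Adh7 (-0.51 ± 0.07), Mpp2 (-0.51 ± 0.09) and Cpox (-0.44 ± 0.06), with adjusted p-values of 4.33e-08 to 0.00814. With all 9 libraries 0 genes passed this contrast in edgeR's test, and 217 had an unadjusted p under 0.05. FICZ against control, fitted without control replicate 3, passed edgeR's test for 16 of the 18 too. The share of all genes tested that passed for FICZ in this fit is not given here, so the count only describes these genes. In that fit FICZ libraries were likewise lower for the genes that fell, Lars2 (log2 -1.10, adjusted p = 1.31e-04) and Loxl4 (log2 -0.30, adjusted p = 0.00743). Neither Lars2 nor Loxl4 passed the direct contrast. Both comparisons with control rest on control replicates 1 and 2, so their results are not independent. None of the 18 genes that rose was higher with tryptamine than with FICZ by the direct contrast. The fitted level was above that with FICZ for 3 of them: Txlnb by a log2 of 0.43 (95% interval 0.03 to 0.83), Gclm by 0.14 (0.00 to 0.28) and Foxq1 by 0.08 (-0.10 to 0.26). Cyp1b1, at 15.6, 14.8 and 14.4 CPM with FICZ, differed between the treatments by a log2 of -0.29 (95% interval -0.60 to 0.03).

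Genes for glutathione supply and the NRF2 response lay slightly above control, but few passed. Of 28 tested, 2 rose without control replicate 3 (Nqo1 and Gclm), 25 had a log2 change above 0 and the median was 0.15. In that fit 11 of the 28 had an unadjusted p under 0.05 in edgeR's test, all higher. Over all genes tested, 0.148% rose, 50.0% were above 0 and the median was 0.00. An unadjusted p under 0.05, in either direction, was found for 6.71% of them. With all 9 libraries 19 of 28 were above 0, with 0 called by edgeR's test. Slc7a11, the cystine transporter that feeds glutathione synthesis, was at 12.6, 13.8 and 11.3 CPM in control and at 19.4, 19.7 and 25.6 CPM with tryptamine. Its groups did not overlap, and its log2 change of 0.71 ± 0.16 (SE) had an adjusted p of 0.0525 without control replicate 3, while DESeq2's Wald test called it with all 9 libraries. Nfe2l2, which encodes NRF2 itself, differed from control by a log2 of 0.25 ± 0.06 (adjusted p = 0.166), Gsr, glutathione reductase, by 0.27 ± 0.08 (adjusted p = 0.347) and Gclc, the catalytic partner of Gclm, by 0.25 ± 0.08 (adjusted p = 0.514). Nqo1 and Nfe2l2 are also in the list of AhR targets.

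Cholesterol synthesis genes showed a like pattern of small values. None of 21 tested passed in either fit of edgeR's test, 18 were above 0 without control replicate 3 with a median of 0.15, and 4 had an unadjusted p under 0.05, all higher, against 50.0% above 0 and 6.71% at that p over all genes tested. Sqle, squalene epoxidase, had the smallest p, with counts of 3372, 3356 and 2776 in control and 4152, 3580 and 3889 with tryptamine and a log2 change of 0.23 ± 0.07 (SE, adjusted p = 0.369). The median was 0.21 with all 9 libraries, where control replicate 3 was the lowest of the 6 libraries for 12 of the 21 genes. Among 15 genes of heme synthesis and breakdown, Cpox alone rose without control replicate 3. Among 25 alcohol and aldehyde dehydrogenases and aldo-keto reductases, Adh7 and Aldh3a1 rose in that fit. Their list had a median of -0.03 there (-0.13 with all 9 libraries, where 0 passed). Over all genes tested, 0.148% rose without control replicate 3.

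The receptor and its partners were not called. Of 18 tested members of the AhR complex and its cofactors, 0 passed in either fit of edgeR's test and 0 had an unadjusted p under 0.05 without control replicate 3. Ahr was at 25.2, 26.8 and 18.5 CPM in control and at 24.7, 22.2 and 25.7 CPM with tryptamine, a log2 change of -0.10 ± 0.12 (SE). Arnt, its partner, had a log2 change of -0.01 ± 0.10 (SE). The list differs with control replicate 3: 14 of 18 members were above 0 with it (median 0.13) and 8 of 18 without it (median 0.00), and it was the lowest of the 6 libraries for 13 of them. Matrix and adhesion genes differed likewise, with 19 of 25 above 0 with it and 14 of 25 without it, where Tnxb rose and Loxl4 fell. Over all genes tested, 0.148% rose and 0.0165% fell without it.

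The enzymes that could oxidise tryptamine were measured unevenly. Maoa, monoamine oxidase A, was at 99.8, 91.8 and 95.2 CPM in control and at 86.1, 79.3 and 88.7 CPM with tryptamine. Every tryptamine value was below every control value, but the log2 change of -0.18 ± 0.09 (SE) did not pass (adjusted p = 0.762 without control replicate 3). Maob was listed at 0 in all 6 libraries. Of 10 tested genes of monoamine and tryptophan metabolism, 0 passed, 2 were above 0 and 0 had an unadjusted p under 0.05, with a median of -0.09 without control replicate 3. The median was -0.12 over the 9 genes tested with all 9 libraries. Aldh2, Aldh7a1 and Aldh9a1, which oxidise aldehydes, had log2 changes of 0.02, -0.06 and 0.06. Of 19 trace amine and monoamine receptors and transporters, 2 could be tested, the vesicular transporters Slc18a1 and Slc18a2, and 0 passed, while the trace amine receptor Taar1 was listed at 0.

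In all, 6 of the 27 gene lists held a gene that passed without control replicate 3, and 9 of the 20 genes were in no list. In the other 21 lists edgeR's test called 0 genes in either fit, and their medians ran from -0.17 to 0.15. They include the cell cycle (31 tested, 1 with an unadjusted p under 0.05, lower), p53 targets (21 tested, 1, higher) and the circadian clock (18 tested, 3). Others are the hypoxia response (28 tested, 4, all higher) and the ER stress and amino acid response (29 tested, 5, all higher). Immediate early and growth genes (27 tested, 6, all higher) and conjugating enzymes (24 tested, 4 higher and 1 lower) are also among them. Over all genes tested, 6.71% had an unadjusted p under 0.05. The shares of the cell cycle and p53 lists lie below that, and those of the other lists named here lie above it. Cebpb, a transcription factor of the acute phase, is a single gene that depends on control replicate 3: its counts were 155, 165 and 402 in control and 307, 239 and 228 with tryptamine. Its log2 change was -0.04 with that library and 0.72 ± 0.17 (SE, adjusted p = 0.105) without it. In the interferon response (23 tested), Ddx58, the viral RNA sensor RIG-I, came closest, at a log2 of 0.42 ± 0.09 (SE) and an adjusted p of 0.0516 without control replicate 3 (limma voom with quality weights called it with all 9 libraries). Summed markers of fibroblasts and stellate cells were at 1450 to 1750 CPM in control and 1680 to 1820 CPM with tryptamine, with 5 of 14, among them Lum, at 0. Those of blood and endothelial cells were at 73.1 to 101 and 75.7 to 77.4 CPM, with 5 of 15, among them Cd3e and Cdh5, at 0, and those of bile duct epithelium at 1160 to 1620 and 1070 to 1150 CPM. The control ranges include control replicate 3. For example, the bile duct marker Krt7 was at 962.3, 939.8 and 1368 CPM in control replicates 1, 2 and 3. With tryptamine Krt7 was at 842.8 to 934.9 CPM. The part of other cell types in the results was not tested.

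**Figure D4:**
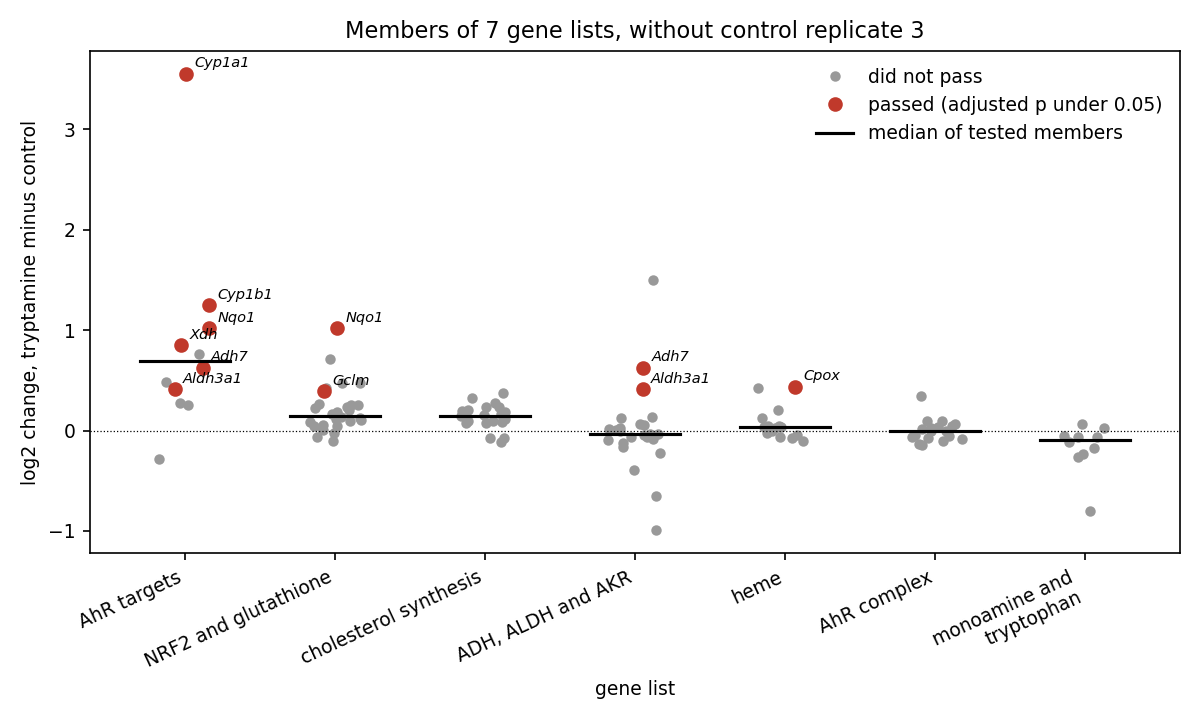
Log2 change of tryptamine minus control without control replicate 3 (vertical axis) for the tested members of 7 gene lists (horizontal axis), with 1 point per gene (Cyp1a2, at 0 in both controls, is left out) and a bar at the median. Genes that passed (red) sit mostly among the AhR targets, whose median of 0.70 is well above the medians of the other lists, at -0.09 to 0.15.

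The authors deposited a list of 22 genes higher with tryptamine, and these are exactly the genes with at least 1 transcript at an adjusted p under 0.05 and a log2 fold change of at least 1 in the authors' deposited table. At the level of genes, 21 could be tested, and 1 passed with all 9 libraries (Cyp1a1). Without control replicate 3, 6 passed (Cyp1a1, Cyp1b1, Txlnb, Xdh, Mpp2 and Cpeb4). Over all genes tested, 0.00834% rose with all 9 libraries and 0.148% without control replicate 3. The list was drawn from the same counts, so these passes are not independent support. For the 15 that were tested and did not pass without control replicate 3, the gene's main transcript was taken. Its median log2 change was 0.40 with all 9 libraries and 0.20 without control replicate 3. For 11 of the 22, the transcript with the smallest p had a level in control replicate 3 below 0.5 times the mean of control replicates 1 and 2. In 8 of those 11 the gene did not pass without that library. Of the other genes of the list, Cyp1a1, Cyp1b1 and Txlnb passed without it. Cyp1a2, Trpc1, Aplp2, Foxo3, Tap1, Mgat4b and Prkag3 did not, and Vav3 could not be tested. A low level in control replicate 3 thus did not set apart the genes that did not pass. For example, the transcript of Kdm5a, a histone demethylase, of 1402 nt had counts of 98, 110 and 12 in control and 158, 123 and 198 with tryptamine. Kdm5a had a log2 change of 1.10 in the authors' deposited list and of 0.17 ± 0.08 (SE) on its main transcript without control replicate 3.

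Other genes of that list were listed for 1 transcript alone. Aplp2, an amyloid precursor-like protein, was listed for 1 of its 16 transcripts, with counts of 11, 30 and 10 in control and 99, 52 and 73 with tryptamine. The groups did not overlap there, while the main transcript of Aplp2 had a log2 change of -0.01 ± 0.06 (SE). Foxo3, a forkhead factor of the insulin pathway, had a short transcript at 5, 14 and 10 counts in control and 39, 45 and 30 with tryptamine, and Tap1, a peptide transporter of antigen presentation, had a transcript of 2638 nt, against 2949 nt for its main one, at 54, 63 and 56 counts in control and 135, 144 and 186 with tryptamine. Their groups were well apart, and the log2 changes of the main transcripts were 0.17 ± 0.10 (SE) and 0.50 ± 0.15 (SE), neither of which passed. In contrast, the transcript of Prkag3 had 0, 0 and 0 counts in control and 2, 2 and 35 with tryptamine, and that of A130064L14Rik 8, 4 and 0 against 12, 4 and 57, and the high value in both was that of tryptamine replicate 3.

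Over all transcripts, the higher and lower calls of the authors' deposited table differed in median length. At an adjusted p under 0.05 it holds 514 transcripts higher with tryptamine, with a median length of 2752 nt, and 1376 lower, with a median length of 698 nt. The median over all 130766 transcripts with a p-value was 1781 nt. In the higher transcripts the level of control replicate 3 was a median of 0.197 times the mean of control replicates 1 and 2, and in the lower transcripts 1.75 times, against 0.838 over all. On a log2(CPM + 0.5) scale, the median change of the higher transcripts was 0.59 against all 3 controls and 0.16 against control replicates 1 and 2. For the lower transcripts these medians were -0.45 and -0.11. These transcripts were chosen by the same counts, so the values describe them and test nothing.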

How the data were processed

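Total RNA was sequenced in 9 libraries, 3 per group. The authors' deposited table for tryptamine against control gives, per the file headers, whole-number counts of reads for 189660 transcripts, with no normalization, together with the authors' log2 fold changes, p-values and adjusted p-values. The FICZ counts came from the deposited table for FICZ, in which the control columns are identical. The authors' deposited list of genes higher with tryptamine holds a mean log2 value per gene. The submitters' processing notes name DESeq. Aligner, counting rule, genome build and annotation: not given in the sources used here.

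For each gene ID above 0, the transcript with the highest mean count over the 6 tryptamine and control libraries was used, since summed counts came to 5.50 to 5.73 times the total used here. Transcripts without a single gene ID (27781, holding 4.37 to 5.00% of transcript counts) were fitted separately. All 9 libraries, and 8 without control replicate 3, entered edgeR 4.0.16 (R 4.3.3): TMM scaling, filterByExpr, a term for group alone, and a quasi-likelihood fit with legacy=FALSE, which is not the default of this version. Adjustment was by Benjamini-Hochberg over all genes tested. SE is the absolute log2 change over the root of F, and CPM uses the effective library size of the 9-library fit. DESeq2 1.42.0 and limma 3.58.1 served as alternatives. Simulated counts with known changes were used to check the edgeR fits with and without control replicate 3. Some of the alternatives were checked in the same way, among them DESeq2 and limma voom. In those counts no library had a length effect, and the other steps were not simulated. Named genes are those past the threshold with the largest changes (up to 15 per direction, a mean of at least 20 counts, no overlap between the libraries fitted), 13 genes always named, up to 3 per list by smallest p, and the authors' list. Genes outside this rule, among them Met and Arl6ip5, were picked once their values had been seen. The genes, lists and tests were chosen with earlier results of these data known.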

Additional observations from a re-analysis of the deposited data

How the results depend on the processing

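With all 9 libraries the count of genes that changed was 1 under most alternatives, including those that left out another library, but 12 with DESeq2's Wald test, 19 with limma voom and sample quality weights, 6 with a length-dependent offset per library and 20 without control replicate 3, so the counts that left out 1 library ran from 1 to 20. Without control replicate 3 the count of 20 became 38 with DESeq2's Wald test, 32 with limma voom and quality weights, 39 without a filter on low counts, 5 with counts summed over transcripts and 13 with only the tryptamine and control libraries, and ran from 6 to 34 when a further library was left out. Summed counts came to 5.5 to 5.73 times the total used here. The causes of the shifts in the number of genes called were not tested. The log2 change of Cyp1a1 kept its call under all alternatives. Whether equal replicate numbers pair the samples is not given in the labels and stays undecided. Deviations from the group mean correlated at 0.04, -0.07 and -0.04 for same-numbered control and tryptamine libraries. The control means include control replicate 3, so these values cannot decide it. For FICZ and tryptamine, same-numbered libraries correlated at 0.05, 0.06 and 0.14, and differently numbered ones at -0.16 to 0.11. With a replicate block the count was 1 with all 9 libraries and 43 without control replicate 3, where all 20 genes were kept. Of 4143 values for named genes, 84 lost a call, 86 gained one, 0 changed sign where called under either setting, and 70 changed sign with no call under either. Depth limits the precision for genes with few counts, such as Cyp1a2.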

Other observations

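Transcripts without a single gene ID, among them entries that name several loci, lie outside the comparison of genes. With edgeR's quasi-likelihood test, 5652 of them were tested with all 9 libraries and 5809 without control replicate 3, and 0 passed in either fit. At an unadjusted p under 0.05 there were 295 (5.22%) and 357 (6.15%).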
